A study of Mus musculus with 18 samples.

Results

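The genes described here encode the proteasome and the machinery that loads its products onto MHC class I molecules, measured in mouse bone marrow macrophages. They were chosen by symbol: every gene named Psma, Psmb, Psmc, Psmd, Psme or Psmg with a number, together with Psmf1, Tap1, Tap2, Tapbp, B2m and Erap1. Of the 12393 genes on the arrays that had a probe set with a single symbol, 53 met this rule. They comprised 8 genes of the alpha ring of the 20S core, 3 standard catalytic and 4 non-catalytic genes of its beta ring, and 3 immunoproteasome catalytic genes. A further 6 were ATPases of the 19S cap, 11 were other 19S subunits, 7 were assembly chaperones and 4 were activators or inhibitors of the core. The last 7 were 5 genes of class I peptide transport, trimming and loading and 2 interacting proteins, Psmc3ip and Psme3ip1, that the symbol rule took in without being subunits.

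The macrophages were grown from C57BL/6 marrow of mice aged 4 to 6 weeks in medium conditioned by L929 fibroblasts, which supplies macrophage colony-stimulating factor, and each of 6 groups had 3 arrays. SPIO-LPS cells received iron oxide particles of 33 nm for 24 h and then lipopolysaccharide (LPS) at 10 ng/ml for 4 h, Silica-LPS cells received amorphous silica particles of 50 nm and then LPS, and LPS cells received medium and then LPS. SPIO cells and Silica cells received the particles and then fresh medium, and CON cells received medium throughout, with no challenge time in their label. The particle concentration is given as 25 mg/ml in the labels, a unit that could not be checked here. Arrays of 1 group are labelled as biological replicates, but the labels do not tie them to individual mice, and p-values therefore describe variation among cultures. No allele or transgene is named for any group.

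The proteasome is the cell's main protease for ubiquitin-tagged proteins: a 20S barrel of alpha and beta rings cuts the protein, and a 19S cap with a ring of ATPases recognises, unfolds and feeds it. In cells exposed to interferon or microbial products, the standard catalytic subunits Psmb6, Psmb7 and Psmb5 can be replaced by Psmb9, Psmb10 and Psmb8, which form the immunoproteasome and favour peptides that fit class I grooves. Such peptides are pumped into the endoplasmic reticulum by the Tap1 and Tap2 transporter, trimmed by Erap1, and loaded with the help of tapasin (Tapbp) onto class I heavy chains paired with beta-2 microglobulin (B2m).

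Signals are log2 values from robust multi-array averaging, and differences are given on that log2 scale, so that 1 is a doubling. Array medians lay between 6.23 and 6.43, correlations within a group between 0.997 and 0.999, and the 95% interval of a group difference spanned 0.17 on either side for the median gene. A gene was called when its adjusted p from limma, corrected by Benjamini-Hochberg over all 12393 genes, was below 0.05. Macrophage markers were high (median log2 signal 12.2 in CON cells), while B cell, T cell and dendritic cell markers averaged between 2.97 and 5.58 in any group. Neutrophil markers were also present (median 10.8 in CON cells), and the 5 fibroblast markers had a median of 9.28, with Col1a2 at 13.5 and Lum at 2.90. In RNA from whole cultures, fewer cells of a type and less RNA per cell cannot be told apart.

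LPS raised the genes of the immunoproteasome and of peptide loading as a block. All 3 immunoproteasome genes and all 5 loading genes were called higher in LPS cells than in CON cells, as were the genes of the activator caps, Psme1, Psme3 and Psme4. Among the 53 members 37 were called, 24 higher and 13 lower, against 58.2% of all genes called in this comparison, 22.2% higher and 36.1% lower. The higher members made up 45.3% of the set and the lower ones 24.5%. The median member differed by 0.05, and the median over all genes was -0.01. Under a cyclic loess scaling the gene-by-gene shift of this difference had a median of 0.15, although the median difference over all genes was then only 0.01. The median member was then at 0.22, with 36 members higher and 8 lower. Small LPS differences are to be read with that shift. Marker genes moved with LPS too: 5 of 7 macrophage markers were lower and 1 higher (summed log2 signal 81.1 in LPS cells and 82.8 in CON cells), 3 of 6 neutrophil markers lower and 1 higher (62.3 and 62.5), and 3 of 5 fibroblast markers higher and 2 lower (42.9 and 41.7). Their part in the LPS results was not tested.

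Tap1, one chain of the peptide transporter, had the largest change. Its log2 signal was 11.31, 11.40 and 11.37 on the 3 LPS arrays and 7.68, 7.58 and 7.49 on the CON arrays. The groups lay far apart, with a difference of 3.77 (SE 0.05, 13.7-fold, adjusted p = 1.18e-17, limma). Psmb9, whose gene lies head to head with Tap1, had 10.92, 10.96 and 10.98 on LPS arrays against 8.80, 8.66 and 8.74 on CON arrays, a difference of 2.22 (SE 0.05, adjusted p = 2.29e-15, limma). Tap2, the other chain of the transporter, had 10.30, 10.30 and 10.45 on LPS arrays and 8.15, 8.30 and 8.22 on CON arrays, a difference of 2.13 (SE 0.06).

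The remaining catalytic subunits of the immunoproteasome followed the same pattern without overlap between groups. Psmb10 was at 12.05, 12.05 and 12.16 on LPS arrays and 10.09, 10.01 and 10.12 on CON arrays, 4.04-fold higher with LPS. Psmb8 was at 11.96, 11.91 and 12.03 on LPS arrays and 10.15, 10.13 and 10.12 on CON arrays, 3.56-fold higher. Psmb9, Tap1, Psmb8 and Tap2 follow each other in this order on chromosome 17 between class II genes (RefSeq, GRCm38.p6), whereas Psmb10 lies elsewhere.

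**Figure D1:**
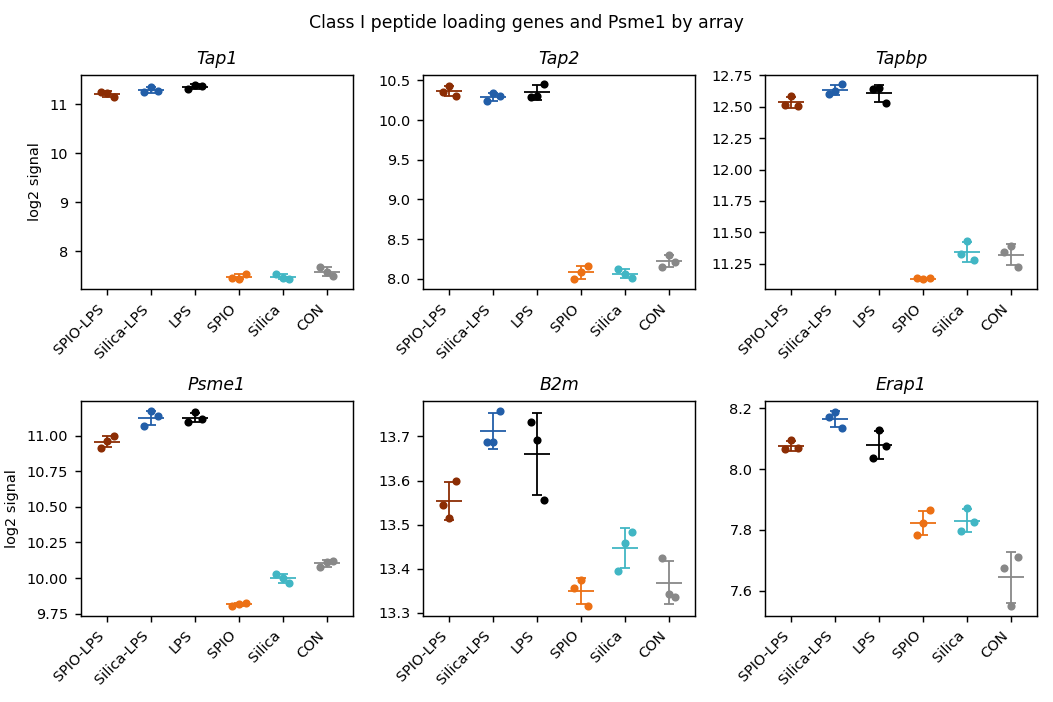
Log2 signal of Tap1, Tap2, Tapbp, Psme1, B2m and Erap1 on each of 18 arrays (points), with group mean (dash) and SD (bar, n = 3), and groups with and without LPS along the horizontal axis. The 3 groups with LPS lie above the 3 without LPS in every panel, by 3.77 for Tap1 and by 0.29 for B2m between LPS and CON cells.

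Tapasin, which bridges the transporter and the class I heavy chain, rose by 1.29 (SE 0.05), and its dimmer probe set rose by 1.69. Psme1, a subunit of the 11S activator that caps the core in place of 19S, averaged 11.13 ± 0.03 in LPS cells and 10.10 ± 0.02 in CON cells (SD, n = 3 each), a 2.03-fold rise. Erap1, the trimming aminopeptidase, rose by 0.43 and B2m by 0.29. B2m signals were 13.56 to 13.73 on LPS arrays and 13.34 to 13.42 on CON arrays. They were near the upper end of the scale, where array maxima ran from 14.48 to 14.62. Whether this affected the size of its change was not tested. Both B2m probe sets gave a rise, of 0.29 and 0.27.

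The promoters of Tap1, B2m, Psmb8 and Psme1 are shown because these genes were all higher with LPS, although the marked cores were not confined to such genes. RefSeq windows on GRCm38.p6, from 250 bases before the start site to 50 after it, were at hand for 44 of the 53 members, and each is printed 5′ to 3′ on the strand of its gene. Tap1 and Psmb9 are read in opposite directions from start sites 226 bases apart, and their windows share 275 of 300 bases, so 1 sequence serves both. Capitals mark CCAAT in Tap1 (chr17:34187306-34187605, plus strand), a GAS core in Psmb8 (chr17:34197945-34198244, plus strand) and an ISRE core in Psme1 (chr14:55578244-55578543, plus strand). In B2m (chr2:122147437-122147736, plus strand) they mark an ISRE core and then an NF-kB core. The B2m window also held a CCAAT match on the other strand, 53 bases before the start site, which is not marked.
Tap1: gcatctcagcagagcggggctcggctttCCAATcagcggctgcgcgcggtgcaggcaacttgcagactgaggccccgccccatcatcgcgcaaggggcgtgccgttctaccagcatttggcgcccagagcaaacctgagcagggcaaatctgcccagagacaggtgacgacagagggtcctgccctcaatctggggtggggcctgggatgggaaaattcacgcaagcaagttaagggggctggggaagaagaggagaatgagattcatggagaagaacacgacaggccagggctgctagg
Psmb8: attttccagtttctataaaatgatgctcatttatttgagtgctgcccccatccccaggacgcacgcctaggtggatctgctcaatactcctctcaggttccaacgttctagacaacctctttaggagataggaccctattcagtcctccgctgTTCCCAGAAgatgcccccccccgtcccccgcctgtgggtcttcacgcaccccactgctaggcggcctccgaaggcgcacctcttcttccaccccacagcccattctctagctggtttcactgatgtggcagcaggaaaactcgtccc
Psme1: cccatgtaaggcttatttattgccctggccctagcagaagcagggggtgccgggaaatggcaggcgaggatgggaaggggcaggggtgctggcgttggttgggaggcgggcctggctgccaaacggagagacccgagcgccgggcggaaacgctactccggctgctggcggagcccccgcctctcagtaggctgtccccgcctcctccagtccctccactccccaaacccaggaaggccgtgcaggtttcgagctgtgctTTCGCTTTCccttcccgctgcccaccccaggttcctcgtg
B2m: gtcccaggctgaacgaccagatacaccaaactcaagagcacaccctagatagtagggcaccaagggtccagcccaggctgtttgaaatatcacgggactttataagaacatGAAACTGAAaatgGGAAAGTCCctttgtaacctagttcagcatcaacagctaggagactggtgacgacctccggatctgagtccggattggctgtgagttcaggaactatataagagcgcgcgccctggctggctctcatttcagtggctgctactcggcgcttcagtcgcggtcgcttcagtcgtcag

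The cores were searched on both strands and spelled GAAANNGAA (ISRE, the element of interferon-stimulated genes), TTCNNNGAA (GAS, the STAT element), TGACNNNGC (antioxidant response element), GGNNTTTCC (NF-kB) and CCAAT (the box bound by NF-Y). Matches of different cores could overlap, and those marked in B2m did not. The ISRE core was in 8 of 44 member windows (18.2%) and in 8.57% of 27025 promoters of the same length, and the GAS core in 3 of 44 and 8.47%. The ISRE windows were those of B2m, Erap1 and Psme1, higher with LPS, of Psmg4, lower with LPS, and of Psmb3, Psmb4, Psmd4 and Psmd9, not called. The antioxidant core was in 6 of 44 (13.6%) and 12.5%, the NF-kB core in 3 of 44 and 5.72%, and CCAAT in 17 of 44 (38.6%) and 37.9%. The windows of Tap1, Psmb8, Psmb9 and Psmb10 held neither an ISRE nor an NF-kB core. The ISRE core began 139 bases before the B2m start site, ahead of the NF-kB core 126 before it, and in Psme1 it began at base 11 counted from the start site. The GAS core of Psmb8 began 97 bases before its start, and the CCAAT of the Tap1 window lies on the same bases as the match 8 before the start of Psmb9. A match shows letters in a window and not that a factor binds there.

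The standard subunits were divided. Among 32 standard 20S and 19S genes, 12 were higher and 8 lower with LPS, and none of these differences reached 2-fold. The 32 include Psma8, described below, which is among the 8 lower. Of the 32, 37.5% were higher and 25% lower, against 22.2% and 36.1% of all genes. The share called in either direction, 62.5%, was near the 58.2% of all genes. Psma6, an alpha-ring subunit, rose by 0.91 (SE 0.05), with 12.95, 12.84 and 12.89 on LPS arrays against 12.01, 11.91 and 12.03 on CON arrays, and its other 3 probe sets rose by 1.04 to 1.40. Psma5 rose by 0.56, while Psma2, Psma3 and Psma4 rose by 0.16 to 0.23. Psma1 fell by 0.50 and Psma7 by 0.25, so the 7 genes of the ring that every cell uses did not move as a unit. Psma8, the alpha subunit otherwise known from testis, was dim (4.48 ± 0.11 in LPS cells and 5.02 ± 0.14 in CON cells) and fell by 0.54.

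Among standard catalytic subunits, Psmb7 (trypsin-like activity) rose by 0.39 and Psmb6 (caspase-like activity) by 0.27. Psmb5, which carries the chymotrypsin-like activity, averaged 10.97 ± 0.03 in LPS cells and 10.97 ± 0.05 in CON cells and was not called, though the loess scaling put it 0.16 higher with an adjusted p of 0.00147. Psmb1, a non-catalytic beta subunit, fell by 0.50, and Psmb2, Psmb3 and Psmb4 were not called. In the 19S cap Psmc5, Psmd6, Psmd7, Psmd11 and Psmd14, the deubiquitinase of the cap, rose by 0.15 to 0.31, and Psmc1, Psmc3, Psmd1 and Psmd13 fell by 0.12 to 0.29. The sign of Psmc1 depended on the scaling (0.05 higher after loess), and Psma7, Psmd13, Psmd5 and Psmg3 were lower but no longer called after it. Psmc1, Psmd11 and Psme4 lost their call when single arrays were left out. Psmd11 differed by 0.03 (adjusted p = 0.617, limma) without probe sets of the _x_ and _s_ kinds, which can match several transcripts, and Psmd6 by 0.08 (adjusted p = 0.161) with the mean of its probe sets. Psmc2, Psmc4, Psmc6, Psmd2, Psmd3, Psmd4, Psmd8 and Psmd12 were not called.

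Of 7 assembly chaperones 1 was higher and 5 lower with LPS, against 22.2% and 36.1% of all genes. Psmd10 (gankyrin), which helps to build the base of the 19S cap, was at 9.71, 9.70 and 9.65 on LPS arrays against 8.37, 8.22 and 8.34 on CON arrays, a difference of 1.38 (SE 0.05, adjusted p = 1.62e-12, limma). The chaperones of alpha-ring assembly went the other way, as Psmg4 fell by 0.63 (8.29 ± 0.08 in LPS cells and 8.92 ± 0.09 in CON cells, SD, n = 3 each). Psmg2 fell by 0.57, Psmg1 by 0.48 and Psmg3 by 0.22. Psmd5, a chaperone of the 19S base, fell by 0.22, and Psmd9, another, differed by -0.05 and was not called. Psmf1, an inhibitor of the core, differed by 0.01 with its brightest probe set, but 2 dimmer ones fell by 0.30 and 0.62, so its transcripts were not read alike by the array.

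The leading genes responded to LPS by similar amounts after particles. In Silica-LPS cells against Silica cells 35 members were called (22 higher, 13 lower, against 57.3% of all genes called, 21.5% higher and 35.8% lower), and in SPIO-LPS cells against SPIO cells 44 were called (31 higher, 13 lower, against 64.1%, 27.3% higher and 36.7% lower). Loess scaling gave 35 higher and 7 lower after silica, and 37 higher and 7 lower after SPIO. Tap1 rose by 3.73 after SPIO, 3.81 after silica and 3.77 without particles. Psmb9 rose by 2.35 after SPIO, 2.30 after silica and 2.22 without particles. Psmd10 rose by 1.33, 1.35 and 1.38 in the same order, and Psmg2 fell by 0.68, 0.59 and 0.57. The 3 comparisons use different arrays.

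With SPIO particles and no LPS, 16 of the 32 standard 20S and 19S genes were higher and all 3 immunoproteasome genes lower. The 16 include the dim Psma8, whose call was lost in several fits that left out 1 array. In SPIO cells against CON cells 29 members were called, 22 higher and 7 lower, against 33.8% of all genes, 19.6% higher and 14.2% lower. The median member differed by 0.09, and the median over all genes was -0.01. None of the 32 standard 20S and 19S genes was lower at limma's threshold. At an unadjusted p below 0.05 the members were 27 higher and 8 lower, against 42.9% of all genes in either direction. The differences were small, at most 0.49. Calls held in each fit that left out 1 array for 15 of the higher and 6 of the lower members. Those lost in at least 1 fit were Psma8, Psmd4, Psmd6, Psmd13, Psme3ip1, Psmf1, Psmg2 and Tapbp, and the count was 21 without the second CON array. Erap1, Psmc6, Psmd4, Psmd6 and Psmf1 were not called in a fit on these groups alone, nor were Erap1, Psmd13, Psme3ip1, Psmf1 and Psmg2 after loess scaling.

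All 3 standard catalytic subunits rose. Psmb5 was at 11.28, 11.32 and 11.37 on SPIO arrays against 10.94, 10.95 and 11.03 on CON arrays, a difference of 0.35 (SE 0.04, 1.28-fold, adjusted p = 5.07e-06, limma). Psmb6 was at 11.01, 11.06 and 11.05 on SPIO arrays against 10.67, 10.78 and 10.83 on CON arrays, a difference of 0.28 (SE 0.04). Psmb7 was at 8.25, 8.29 and 8.27 on SPIO arrays against 7.98, 8.05 and 7.91 on CON arrays, a difference of 0.29 (SE 0.07). The lowest SPIO array stood above the highest CON array for each.

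Psmb5 and Psmb6 are shown by their promoter windows because both held the core of an antioxidant response element, in capitals, 47 bases before the start of Psmb5 (chr14:54617946-54618245, minus strand) and 9 before that of Psmb6 (chr11:70525107-70525406, plus strand). The core was also in the windows of Psmc6, Psmd9 and Psmd12, higher with SPIO, and of Psme4, not called. It was in 1 of 5 windows of 19S ATPases and 1 of 9 of other 19S subunits. Its share among member windows (13.6%) was near that of all promoters (12.5%).
Psmb5: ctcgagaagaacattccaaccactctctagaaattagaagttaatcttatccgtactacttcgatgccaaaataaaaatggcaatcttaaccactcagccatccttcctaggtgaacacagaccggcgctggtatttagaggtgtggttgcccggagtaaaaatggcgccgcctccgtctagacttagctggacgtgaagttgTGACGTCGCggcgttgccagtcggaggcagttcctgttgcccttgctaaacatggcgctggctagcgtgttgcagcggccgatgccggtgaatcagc
Psmb6: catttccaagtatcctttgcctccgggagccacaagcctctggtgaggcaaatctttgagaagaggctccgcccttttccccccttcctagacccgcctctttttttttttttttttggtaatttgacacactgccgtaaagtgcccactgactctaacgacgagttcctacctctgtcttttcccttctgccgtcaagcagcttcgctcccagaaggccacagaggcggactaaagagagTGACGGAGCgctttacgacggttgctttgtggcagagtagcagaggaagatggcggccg

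All 3 immunoproteasome subunits fell. Psmb9 was at 8.29, 8.43 and 8.35 on SPIO arrays against 8.80, 8.66 and 8.74 on CON arrays, a difference of -0.38 (SE 0.05, 1.30-fold lower, adjusted p = 3.19e-05, limma). Psmb10 was at 9.88, 9.86 and 9.87 on SPIO arrays against 10.09, 10.01 and 10.12 on CON arrays (difference -0.20). Psmb8 was at 10.00, 10.00 and 9.94 on SPIO arrays against 10.15, 10.13 and 10.12 on CON arrays (difference -0.15). Again no array of one group entered the range of the other.

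**Figure D2:**
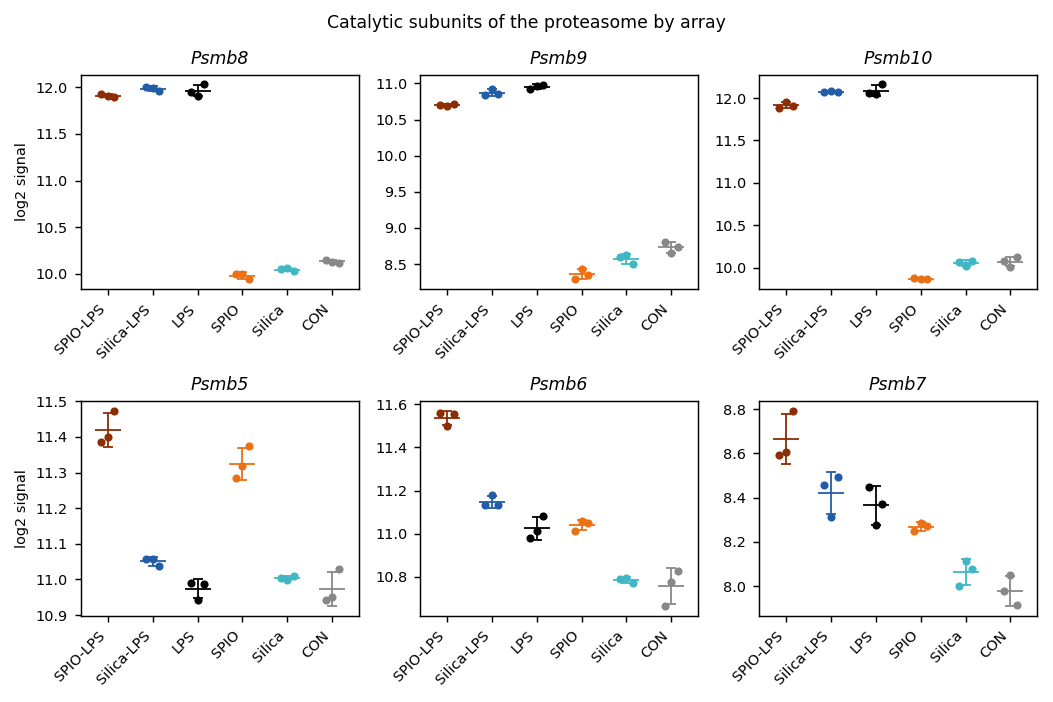
Log2 signal of the immunoproteasome subunits Psmb8, Psmb9 and Psmb10 (upper row) and the standard subunits Psmb5, Psmb6 and Psmb7 (lower row) on each of 18 arrays (points), with group mean (dash) and SD (bar, n = 3). The upper row is split by LPS; in the lower row the SPIO groups lie above the groups with the same LPS treatment, and Psmb5 averages 11.33 in SPIO cells and 10.97 in CON cells.

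Set against each other within an array, each immunoproteasome subunit was lower with SPIO relative to the standard subunit whose place it takes. The Psmb8 signal minus the Psmb5 signal differed by -0.50 between SPIO and CON cells, that of Psmb9 minus Psmb6 by -0.66, and that of Psmb10 minus Psmb7 by -0.49. Between LPS and CON cells the same quantities differed by 1.83, 1.95 and 1.63, so the SPIO change was smaller in size and opposite in sign. Between Silica and CON cells they differed by -0.12, -0.19 and -0.10, the last with overlap between the groups. Between SPIO and Silica cells they differed by -0.39, -0.47 and -0.39, without overlap. These are changes of a difference between probe sets and give no ratio of the proteins.

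The loading genes moved less evenly with SPIO. Psme1 fell by 0.29 (SE 0.04), with 9.81, 9.82 and 9.83 on SPIO arrays and 10.08, 10.11 and 10.12 on CON arrays. Erap1 rose by 0.18. Tapbp was lower by 0.19 with its brighter probe set and 0.23 higher with its dimmer one, both past the threshold, so its direction is uncertain. It is among the 7 lower members only because the counts use the brighter probe set. Tap1 (-0.10), Tap2 (-0.14) and B2m (-0.02) were not called.

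In the 19S cap 11 of 17 genes were called, all higher, against 33.8% of all genes called and 19.6% higher. Psmd1, a large scaffold subunit of the cap, was at 11.45, 11.46 and 11.44 on SPIO arrays against 10.93, 10.98 and 10.98 on CON arrays, a difference of 0.49 (SE 0.04, 1.40-fold, adjusted p = 6.53e-08, limma). Psmd8, a lid subunit, was at 11.67, 11.65 and 11.67 on SPIO arrays against 11.13, 11.21 and 11.25 on CON arrays (0.47), and Psmd2, the other large scaffold, rose by 0.44. The 2 groups did not overlap for any of these. Psmc1 and Psmc5, ATPases of the ring, rose by 0.26 and 0.19, and Psmc6, Psmd4, Psmd6, Psmd12, Psmd13 and Psmd14 rose by 0.12 to 0.17. With means of probe sets Psmd6 differed by 0.05 and Psmd13 by 0.13, and neither was called.

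In the 20S core Psmb3 rose by 0.25, and none of the 7 broadly expressed alpha subunits was called, their differences running between -0.03 and 0.10. The dim Psma8 was higher by 0.25 and lost its call in several fits that left out 1 array. Of the chaperones, Psmd5 rose by 0.37 (9.15, 9.18 and 9.19 on SPIO arrays, 8.80, 8.80 and 8.80 on CON arrays), Psmd9 by 0.35 and Psmg2 by 0.19, while Psmg4 fell by 0.26. The rise of Psmd9 was 0.10 and not called when its probe sets were averaged. Psmf1 and Psme3ip1 rose by 0.15 and 0.16, and Psmc3ip, a recombination factor named for its binding to Psmc3, fell by 0.29.

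Of the 53 members 11 were called in opposite directions by LPS and by SPIO, each against the same CON arrays, which the comparisons share. Of all genes 58.2% were called with LPS and 33.8% with SPIO. The share of all genes called in opposite directions was not counted, so the 11 cannot be read as particular to these genes. Psmb8, Psmb9, Psmb10 and Psme1 were higher with LPS and lower with SPIO, as was Tapbp by its brighter probe set. Psmc1, Psmd1, Psmd5, Psmd13, Psmg2 and Psma8 were lower with LPS and higher with SPIO, although after loess scaling the LPS sign of Psmc1 turned and Psmd5 and Psmd13 were no longer called for LPS. Psmd1 had -0.28 and 0.49, and Psmb9 had 2.22 and -0.38.

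**Figure D3:**
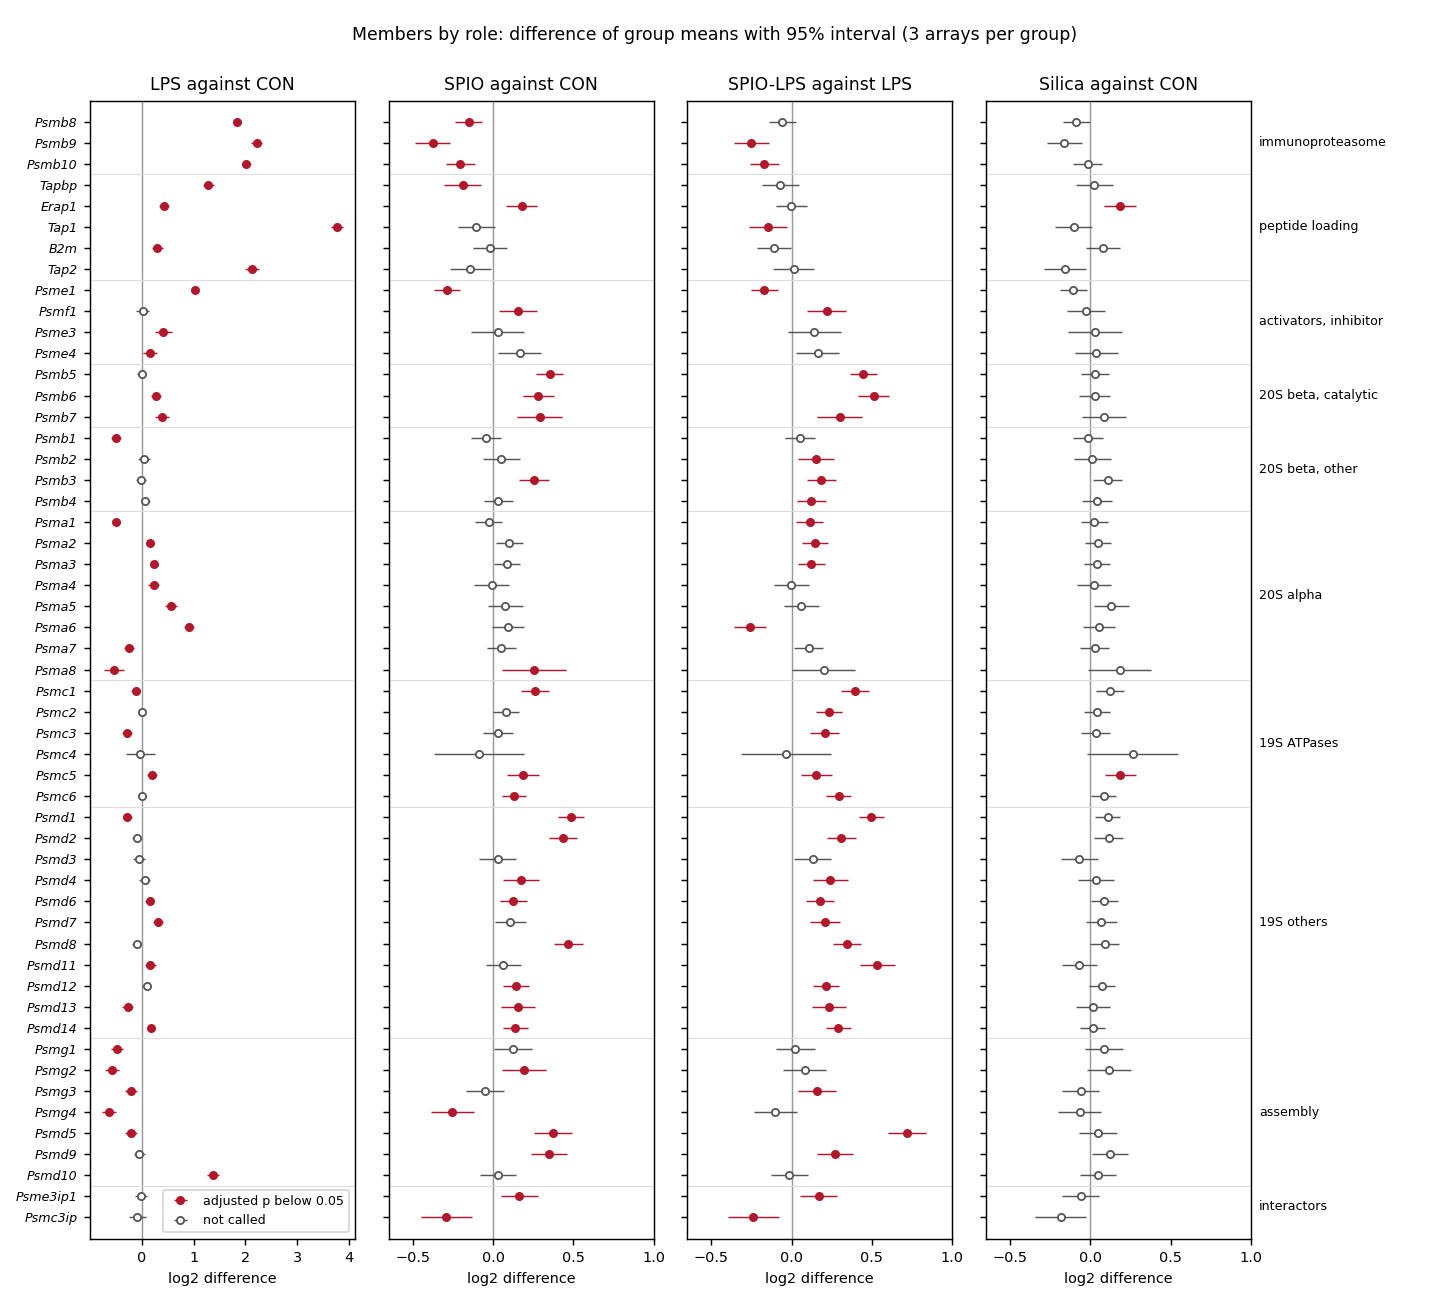
Log2 difference of each of the 53 members (points, with 95% interval from limma) in LPS against CON, SPIO against CON, SPIO-LPS against LPS and Silica against CON, 3 arrays per group, with genes grouped by role down the page. Filled points have an adjusted p below 0.05: the immunoproteasome genes lie right of 0 for LPS and left of 0 for SPIO, the 19S genes called for SPIO lie right of 0, and the first panel has a wider scale than the others.

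Standard subunits were higher after SPIO also in cells that then met LPS. In SPIO-LPS cells against LPS cells 35 members were called, 29 higher and 6 lower, against 32.7% of all genes, 18.2% higher and 14.6% lower. A fit on these 2 groups alone called 20 members, 18 higher and 2 lower. Of the 32 standard 20S and 19S genes 24 were higher and 1, Psma6, was lower. Of the members called higher, 19 were higher in both SPIO comparisons, which is 86.4% of the 22 without LPS and 65.5% of the 29 with LPS, and 4 were lower in both. These comparisons share no array. The same overlap was not counted over all genes, so it cannot be read as particular to the members. The median member differed by 0.15, and the median over all genes was 0.01.

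Psmd5 had the largest difference, with 9.28, 9.20 and 9.42 on SPIO-LPS arrays against 8.61, 8.50 and 8.64 on LPS arrays (0.72, SE 0.06, 1.64-fold, adjusted p = 6.43e-08, limma). Psmd11, a lid subunit, was at 11.86, 11.81 and 11.84 on SPIO-LPS arrays against 11.24, 11.28 and 11.38 on LPS arrays (0.53, SE 0.05). Psmb6 was at 11.56, 11.50 and 11.55 on SPIO-LPS arrays against 10.98, 11.01 and 11.08 on LPS arrays (0.51, SE 0.04). In all 3 genes the SPIO-LPS arrays stood clear of the LPS arrays.

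Psmb5 rose by 0.45 and Psmb7 by 0.30, so all 3 standard catalytic genes were again higher. Psmd1 rose by 0.50, Psmc1 by 0.40, Psmd8 by 0.34 and Psmd2 by 0.31. All 11 non-ATPase genes of the cap except Psmd3 were called higher, against 18.2% of all genes. So were all ATPases except Psmc4, whose LPS arrays ranged between 10.2 and 10.8. In the core, Psma1, Psma2, Psma3, Psmb2, Psmb3 and Psmb4 were higher by 0.11 to 0.19, but Psma1, Psma3, Psmb2 and Psmb4 lost their call in some fits that left out 1 array, as did Psmc5, Psmg3, Psme3ip1, Psmc3ip and Tap1. Psmd9 rose by 0.27 and Psmf1 by 0.22. With means of probe sets, Psmd9 (0.14), Psmd6 (0.04) and Psmb4 (0.05) were not called, nor were Psma1, Psmc6, Psmd7 and Tap1.

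The 6 lower members were Psmb9, Psmb10, Psme1, Tap1, Psma6 and Psmc3ip. Psmb9 was at 10.71, 10.69 and 10.72 on SPIO-LPS arrays against 10.92, 10.96 and 10.98 on LPS arrays (-0.25, SE 0.05). Psmb10 was lower by 0.17 and Psme1 by 0.17. Psmb8 differed by -0.06 and was not called, nor were Tap2 (0.01), Tapbp (-0.07), B2m (-0.11) and Erap1 (-0.00). Tap1 was lower by 0.15 with an adjusted p of 0.0497, a margin that 5 of the 6 fits without 1 of these arrays did not keep.

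The LPS response itself differed after SPIO for 4 members, against 8.8% of all genes called in this test of the interaction, 3.73% higher and 5.07% lower, a share near that of the members (7.55%). Other settings called more, 8 members with a variance trend and robust prior and 7 without the dimmest 33.3% of genes. The share of all genes called under these settings is not given, so these counts are not set against a background. Psmd11 rose by 0.63 with LPS after SPIO and by 0.16 without particles, a difference of 0.47 (SE 0.07, adjusted p = 0.000419, limma). Without LPS its arrays read 11.18, 11.19 and 11.25 in SPIO cells against 11.13, 11.14 and 11.17 in CON cells, so the SPIO arrays stood only just above the others. Of its 6 probe sets 4 were called in this test, with differences of 0.47 to 0.59, and the 2 dimmest were not.

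Psmd5 differed by 0.13 with LPS after SPIO and fell by 0.22 without particles (difference 0.34, adjusted p = 0.0099, limma). Psmb6 rose by 0.50 after SPIO and by 0.27 without particles (difference 0.23, adjusted p = 0.0338, limma), a call lost in 9 of the fits that left out 1 array. Psma6 went against these, rising by 0.56 after SPIO and by 0.91 without particles (difference -0.35, adjusted p = 0.00253, limma). Its arrays read 12.60, 12.60 and 12.70 in SPIO-LPS cells, 12.95, 12.84 and 12.89 in LPS cells, 12.05, 12.12 and 12.05 in SPIO cells and 12.01, 11.91 and 12.03 in CON cells. None of the immunoproteasome and loading genes was called for a different LPS response, with values between -0.18 and 0.16.

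**Figure D4:**
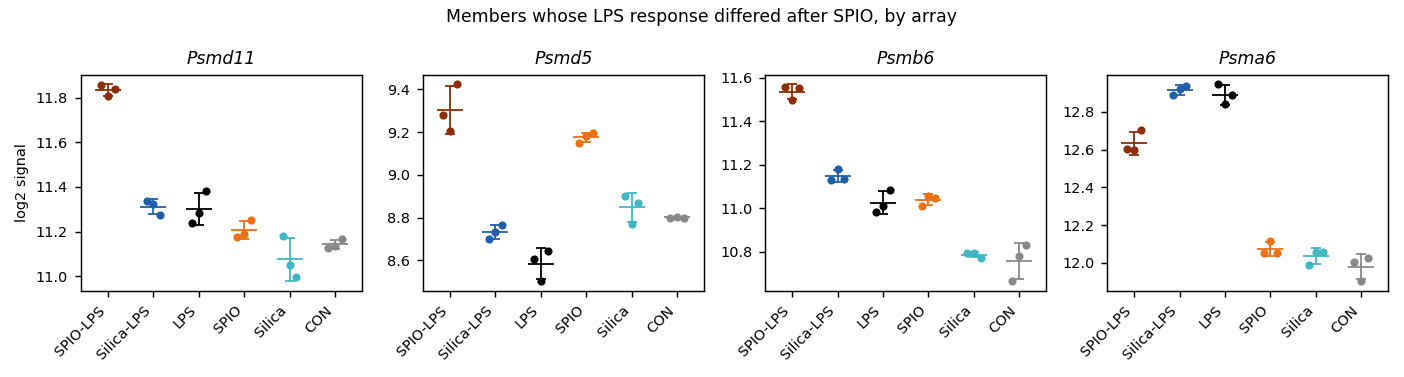
Log2 signal of Psmd11, Psmd5, Psmb6 and Psma6 on each of 18 arrays (points), with group mean (dash) and SD (bar, n = 3). For Psmd11 the SPIO-LPS arrays lie between 11.8 and 11.9 and all other arrays below them, and for Psma6 they lie below the Silica-LPS and LPS arrays.

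Few members were called with silica. In Silica cells against CON cells 2 members, Psmc5 (0.19) and Erap1 (0.19), were called higher, against 4.02% of all genes (2.45% higher and 1.57% lower), and each lost its call in several fits that left out 1 array. By unadjusted p below 0.05 there were 16 members, 11 higher and 5 lower, against 17.9% of all genes. In Silica-LPS cells against LPS cells limma called no member, against 2.86% of all genes, and 6 had an unadjusted p below 0.05, all higher, among them Psmb6 (0.12) and Psmd5 (0.15), against 16.8% of all genes. A variance trend with a robust prior called 1. The LPS response after silica differed for 0 members by adjusted p and 0 by unadjusted p, against 0.0161% of all genes by adjusted p.

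The 2 particles differed directly. In SPIO cells against Silica cells 18 members were called, 13 higher and 5 lower, against 26.1% of all genes, 14.6% higher and 11.6% lower. In SPIO-LPS cells against Silica-LPS cells 24 were called, 19 higher and 5 lower, against 25.1% of all genes, 12.2% higher and 12.9% lower. Of the 32 standard 20S and 19S genes only 9 were called without LPS, all higher. The share called, 28.1%, was near the 26.1% of all genes. Among them were 1 of 6 ATPases of the cap and 0 of 8 alpha-ring genes. With LPS 16 of the 32 were higher and 1 lower. Psmb5 was higher with SPIO by 0.32 without LPS and by 0.37 with it, and Psmd1 by 0.38 and 0.45. Psmd5 was higher by 0.33 without LPS and by 0.57 with it. Psmb9 was lower with SPIO by 0.22 without LPS and by 0.17 with LPS, where its call was lost in some fits that left out 1 array. Of the 3 immunoproteasome genes 2 were called lower in each comparison. Differences of the 3 ran from -0.22 to -0.07 without LPS and from -0.17 to -0.08 with it. Psme1 was lower by 0.18 and 0.17.

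Markers of other cells and the state of the RNA moved alongside the SPIO differences. All 6 neutrophil markers were called lower in SPIO cells than in CON cells, with a summed log2 signal of 59.0 in SPIO cells and 62.5 in CON cells, and 5 of 6 were lower in SPIO-LPS cells than in LPS cells (59.4 and 62.3). Of 5 fibroblast markers 3 and 4 were lower in these comparisons (40.1 in SPIO cells and 41.7 in CON cells, 40.8 in SPIO-LPS cells and 42.9 in LPS cells). Of 7 macrophage markers 4 were lower and 2 higher in SPIO cells. Of all genes 14.2% were lower and 19.6% higher with SPIO, and 14.6% and 18.2% with SPIO under LPS. In Silica cells against CON cells no neutrophil or macrophage marker was called, and 1 of 5 fibroblast markers was higher. The signal of the 3′ Gapdh control over its 5′ control was 0.47 ± 0.03 in SPIO cells, 0.52 ± 0.05 in LPS cells and 0.69 ± 0.04 in CON cells (SD, n = 3 each). The same measure of Actb was 0.66 ± 0.01 in SPIO cells, 0.38 ± 0.05 in LPS cells and 0.59 ± 0.02 in CON cells, so with SPIO the 2 controls moved in opposite directions and with LPS both were lower. The part of these in the results was not tested.

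Genes that work beside the members were followed through lists that cover class I heavy chains and loading chaperones, proteasome partners, peptidases and regulators. Their counts stand beside the shares of all genes given above for each comparison: 22.2% higher and 36.1% lower with LPS, 19.6% and 14.2% with SPIO, and 18.2% and 14.6% with SPIO under LPS. Of 12 measured heavy chains and loading chaperones, 6 were higher and 3 lower with LPS. The non-classical class I genes H2-T24 and H2-M3 rose by 2.35 and 0.85 and the tapasin relative Tapbpl by 1.49, while the lectin chaperone Calr fell by 0.41. The classical heavy chains were near the upper end of the scale, where H2-D1 rose by 0.09 with LPS and H2-K1 differed by 0.09 without being called. With SPIO 4 of the 12 were higher and 1 lower. H2-D1 rose by 0.23 and H2-K1 by 0.18, Pdia3, the oxidoreductase of the loading complex, rose by 0.25, and H2-T24 fell by 0.48. With SPIO under LPS 3 were higher and 2 lower, H2-D1 rising by 0.19 and H2-K1 by 0.13. Heavy-chain genes are close relatives and can share probes, so their separate values are uncertain, and with means of probe sets H2-K1 differed by 0.02 with SPIO and by 0.07 with SPIO under LPS, not called.

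Of 11 measured proteasome partners, 1 was higher and 6 lower with LPS. The shuttle factor Ubqln2 fell by 0.91 and the deubiquitinase Uchl5 by 0.83, while Pomp, the maturation factor of the 20S core, differed by 0.05 and was not called. With SPIO 4 were higher and 1 lower without LPS, and 5 higher and none lower with LPS. Ecpas, a scaffold that binds the 26S particle, rose by 0.28 without and 0.52 with LPS. The shuttle factors Ubqln1 and Rad23b rose by 0.33 and 0.28 without LPS, and Ubqln1 differed by 0.11, not called, with the mean of its probe sets. Pomp rose by 0.12 without and 0.15 with LPS.

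Of 8 measured cytosolic and ER peptidases, 1 was higher and 3 lower with LPS, where Dpp3 fell by 0.46 and Thop1 by 0.42, though neither was called with means of probe sets (-0.12 and -0.05). With SPIO 1 was higher (Nln, by 0.52) and 1 lower (Thop1, by 0.21). Under LPS, SPIO gave 1 higher (Tpp2, by 0.19) and 2 lower (Lap3, by 0.26, and Npepps, by 0.17). With means of probe sets Thop1 with SPIO, and Tpp2 and Npepps with SPIO under LPS, were not called.

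All 13 measured regulators were called with LPS, 11 higher and 2 lower. Irf1, an activator of immunoproteasome and Tap1 transcription, rose by 1.85, and the interferon signalling factor Stat2 by 3.37. Nfe2l2 (NRF2), the oxidative stress factor, rose by 0.87, and Nfe2l1, the factor known to raise proteasome genes when proteasome activity is short, by 0.36. With SPIO 1 was higher (Irf8, by 0.29) and 5 lower: Irf1 fell by 0.51 and Irf9 by 0.51. Nfe2l1 and Nfe2l2 were not called in SPIO cells, and Nfe2l2 differed by 0.06. In SPIO-LPS cells against LPS cells 3 were higher and 4 lower, with Irf1 higher by 0.27, Nfe2l1 by 0.21 and Irf8 lower by 0.96. The LPS response differed after SPIO for 4 of the 13 regulators, 3 higher and 1 lower, against 3.73% and 5.07% of all genes. That of Irf1 was larger after SPIO, by 0.79. Irf8 was the lower one, with a difference of -1.24. It averaged 9.85 in CON cells, 10.04 in LPS cells, 10.13 in SPIO cells and 9.08 in SPIO-LPS cells.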

How the data were processed

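RNA of 18 macrophage cultures was measured on 1-colour Affymetrix arrays, 3 per group. The deposited file holds a log2 signal for each probe set, made with RMA per the submitters' processing notes, with its software, version and settings not given in the sources used here. They hold no counts or detection calls, and precision rests on 3 arrays a group.

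Of 22690 probe sets, 20380 had 1 gene symbol in the deposited annotation. Symbols were updated through gene identifiers, and the probe set with the highest mean over the 18 arrays stood for each of 12393 genes. The 53 members had 95 probe sets, and 24 members had several. Psme2 had only a probe set shared with Psme2b and is not among them.

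In R 4.3.3, limma 3.58.1 was fitted to all 18 arrays with 1 mean per group, then contrasts and empirical Bayes moderation, with Benjamini-Hochberg adjustment over all genes in each of 9 group differences and 2 interactions. The scripts were tested on simulated data. An exact permutation of 3 against 3 arrays cannot go below p = 0.1. Figures were drawn with matplotlib 3.10.9.

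The members, roles and companion lists were chosen with earlier results of these data known. Named in the text are the catalytic, activator and loading members, up to 8 of the largest rises and falls among called members of a comparison, and, from each companion list, up to 4 called genes besides Nfe2l1, Nfe2l2, Irf1, Pomp, H2-K1 and H2-D1. Members outside these were named to account for every gene. Arrays were not paired by replicate number. Alternatives were a replicate block, a fit of only the groups compared, a variance trend with robust prior, means of probe sets, cyclic loess, array weights, omission of the dimmest 33.3% of genes, each array left out, and, chosen after seeing the data, no probe sets of the _x_ or _s_ type.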

Additional observations from a re-analysis of the deposited data

Results flagged for a closer look

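The LPS response of 4 members differed after SPIO by a direct test of the interaction in limma. The difference was 0.47 for Psmd11, 0.34 for Psmd5, 0.23 for Psmb6 and -0.35 for Psma6, as the log2 LPS change after SPIO minus that without particles.

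A probe set annotated to both Psme2b and Psme2 was outside the gene tests. It was 2.00 higher in LPS cells than in CON cells (SE 0.05), with 12.67, 12.65 and 12.60 on LPS arrays against 10.57, 10.69 and 10.68 on CON arrays. It was lower by 0.22 in SPIO cells than in CON cells (adjusted p = 0.00155, limma over all probe sets), and differed by -0.05 between SPIO-LPS and LPS cells (adjusted p = 0.467, limma). Which of the genes gave this signal was not tested.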

How the results depend on the processing

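For silica against CON, 0 members were called with a replicate block or with the compared groups alone, 6 with a variance trend and robust prior, 1 with cyclic loess, and 0 to 1 in fits without 1 array. For Silica-LPS against LPS, 1 was called with the variance trend and robust prior, and 0 in every fit without 1 array. For SPIO-LPS against LPS, 20 were called with the compared groups alone and 27 to 36 in fits without 1 array. For the SPIO interaction, 8 were called with the variance trend and robust prior, 7 without the dimmest 33.3% of genes, and 3 to 5 in fits without 1 array. For the other comparisons, fits without 1 array called 34 to 38 members (LPS against CON), 21 to 30 (SPIO against CON), 34 to 36 (Silica-LPS against Silica), 40 to 42 (SPIO-LPS against SPIO), 13 to 18 (SPIO against Silica), 19 to 24 (SPIO-LPS against Silica-LPS) and 0 for the silica interaction. The other counts of members stayed within 1.5 times of those reported under the other alternatives. Shares of all genes called under these alternatives are not given here.

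Signs turned for these called genes. With means of probe sets, Tpp2 (LPS against CON) was -0.0068, Tapbp (SPIO against CON) 0.020, Psmd6 (Silica-LPS against Silica) -0.0026, Psmd9 (SPIO-LPS against SPIO) 0.024 and Psmd9 (SPIO against Silica) -0.0095. With cyclic loess, Psmc1 was 0.054 (LPS against CON), and Psmc1 was 0.026, Psmd2 0.019 and Psmd9 0.036 (Silica-LPS against Silica). Under loess Psmc3 was 0.037 and Psmd9 0.076 (SPIO-LPS against SPIO). Without _x_ and _s_ probe sets, Rfxank (SPIO-LPS against LPS) was -0.017. The cause was not tested. The replicate numbers did not pair the arrays: 27 correlations of same-numbered deviations ran from -0.315 to 0.177, with 5 over 0.1. The block gave 36 members for LPS against CON, 29 for SPIO against CON and 32 for SPIO-LPS against LPS. Signals hold no detection calls, so changes of dim members such as Psma8 are the least certain.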

Other observations

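Psma6, the alpha-ring gene with the largest LPS change, lies next to Nfkbia, the gene of the NF-kB inhibitor IkB-alpha, in RefSeq's gene order on chromosome 12. Nfkbia was singled out after its values were seen. It was higher with LPS by 1.35 after SPIO and by 1.35 without particles. The difference of its LPS response was 0.00 (adjusted p = 0.98, limma), against -0.35 for Psma6.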
